A study of Mus musculus with 3 samples.

Results

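Cluster C7 is 1 of 13 expression clusters of splenic donor CD4+ T cells taken after allogeneic bone marrow transplantation (allo-BMT). Its members were the cells that the authors' cell table places in cluster 7 of the CD4+ T cells and does not mark as TEa. This rule gave 490 cells of 10091 CD4+ T cells without the TEa mark, of 21204 cells in all (9601 other CD4+ and 10833 CD8+ T cells). A further 13 TEa cells of the cluster were left out. Each of the 9 pools held between 40 and 72 C7 cells, with 177 cells under saline, 165 under cyclosporine A (CSA) at 5 mg/kg and 148 under CSA at 50 mg/kg.

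B6D2F1 recipients were irradiated and given T cell-depleted B6 bone marrow with polyclonal B6 T cells and a small number of TEa T cells, which carry a transgenic TCR for a recipient MHC class II peptide on a Rag1-/- background. All recipients received this graft, and they differed in the daily treatment from day 0 to day 6, which was saline or CSA at a dose of 5 or 50 mg/kg. Spleens were taken on day 7 from 6 mice per group, and 2 spleens were combined per pool, giving 3 pools per group that were marked by hashtag antibodies. Both sorted lineages of a group went into 1 droplet capture, so a treatment and its capture cannot be told apart, and p-values measure the spread between pools of 2 mice. The age of the mice is not given in the sources used here.

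CSA blocks calcineurin, the phosphatase that lets NFAT enter the nucleus after the TCR is engaged. NFAT acts with AP-1 and NF-kB at the promoters of cytokine genes, whereas Myc-driven growth, ribosome production and the cytotoxic granule program can also be driven by cytokine receptors and costimulation. CD4+ T cells of the graft respond to recipient MHC class II and are a source of the cytokines of acute graft-versus-host disease (GVHD).

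Promoters are shown for 3 cytokine genes described next and for Gzmb, the gene given as the marker of the cluster, because these members differed in how they moved with CSA. Each sequence is the 250 bases before the RefSeq gene start (GRCm38.p6, minus strand of the chromosome, written 5′ to 3′ along the gene). Capitals mark GGAAA or its reverse complement TTTCC, the core that NFAT proteins bind and that NF-kB sites can also hold.
Ccl1 (chr11:82179813-82180062): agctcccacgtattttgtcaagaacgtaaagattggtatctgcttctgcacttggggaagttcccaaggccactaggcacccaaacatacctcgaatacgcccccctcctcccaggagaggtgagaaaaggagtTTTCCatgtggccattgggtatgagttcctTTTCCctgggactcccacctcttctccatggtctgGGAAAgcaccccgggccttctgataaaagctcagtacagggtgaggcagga
Csf2 (chr11:54249900-54250149): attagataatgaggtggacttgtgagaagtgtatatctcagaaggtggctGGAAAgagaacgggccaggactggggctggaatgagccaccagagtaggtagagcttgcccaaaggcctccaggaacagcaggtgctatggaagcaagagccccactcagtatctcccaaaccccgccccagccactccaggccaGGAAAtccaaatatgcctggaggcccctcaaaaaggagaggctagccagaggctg
Ccl3 (chr11:83649379-83649628): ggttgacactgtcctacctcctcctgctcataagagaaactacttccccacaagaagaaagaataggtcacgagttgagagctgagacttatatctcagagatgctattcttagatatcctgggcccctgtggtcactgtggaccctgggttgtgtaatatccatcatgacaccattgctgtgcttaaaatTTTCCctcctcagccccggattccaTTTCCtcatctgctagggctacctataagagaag
Gzmb (chr14:56262335-56262584): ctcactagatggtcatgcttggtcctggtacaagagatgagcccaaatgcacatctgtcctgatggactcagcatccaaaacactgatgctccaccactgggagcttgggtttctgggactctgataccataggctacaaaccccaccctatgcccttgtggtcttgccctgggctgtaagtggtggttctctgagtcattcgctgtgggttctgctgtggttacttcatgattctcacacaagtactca
The core was found 3 times before Ccl1 (starting 116, 86 and 51 bases before the gene start), 2 times before Csf2 (200 and 55 bases) and 2 times before Ccl3 (59 and 34 bases). It was not found in the 250 bases before Gzmb. A match was common, since 15020 of 27025 promoters of this length in the table (55.6%) held at least 1. The overlap of GGAAA with NF-kB sites was not resolved, and a match is not evidence of binding.

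The label of the cluster, cytotoxic T cells, was checked first, and the data went against it. Gzmb, the granule protease granzyme B, was at 384, 270 and 463 CPM (UMIs scaled to the total of the summed cells) in C7 of the saline pools, where the other CD4+ T cells averaged 698 ± 36.7 CPM (SD, n = 3). By mean level over pools, Gzmb in C7 ranked 6th of the 13 clusters. A pool was left out of the mean of a cluster when it held fewer than 10 of its cells. C6, C11 and C12 were thus averaged over fewer pools than C7 and another mix of doses, so the rank compares unlike sets of pools. Gzma (granzyme A) averaged 212 CPM in C7 and 385 CPM outside it under saline, and Prf1, which encodes the pore-forming protein perforin, averaged 31.4 CPM against 37.8 CPM. Of 18 cytotoxic markers, 1 (Srgn, the proteoglycan of granules) was higher in C7 than in the other CD4+ T cells in all 9 pools and 3 were lower in all 9, with a median log2 ratio of -0.20. Of all 8125 genes of at least 10 CPM, 12.8% were higher and 15.1% lower in this way, so the counts of the markers were near the background. The cluster is therefore called C7 here and not by that label.

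The share of cells with a Gzmb UMI gave the same picture. After thinning each cell to 2000 UMIs, 48.1% ± 10.2 (SD, n = 3 pools) of C7 cells under saline held a Gzmb UMI, against 63.8% ± 1.89 of the other CD4+ T cells and 57.5% ± 23.4 of cluster C9, the naive cells, which should lack the gene. Without thinning, the shares were 70.4%, 78.4% and 71.0%, at medians of 4518 UMIs per C7 cell. Gzmb UMIs in C7 under saline were thus no more frequent than in naive cells of the same capture, so their share was not clear of background. The thinned C9 share rested on 54 cells, with 80%, 59.1% and 33.3% by pool. In saline pool 1, 1 C7 cell held 17 of the 119 Gzmb UMIs, and the top 5 cells held 51.3%. Not all Gzmb UMIs of C7 under saline are therefore read as background. At 5 mg/kg the thinned share was also not above C9, with 44.2% ± 5.38 in C7 and 49.2% ± 10.3 in C9. Without thinning it was 78.8% against 63.3%, at medians of 7358 and 3216 UMIs per cell. At that dose 1 cell held 46 of the 202 Gzmb UMIs of C7 in pool 2, and 1 cell held 35 of 228 in pool 3. With single cells this high, Gzmb at 5 mg/kg is not read as background. Only at 50 mg/kg was the thinned share in C7 (52.9% ± 2.59) clear of C9 (12.1% ± 12.7). After thinning, a Gzma UMI was held by 40.2%, 27.8% and 2.69% of C7 cells under saline and at the low and the high dose. In C9 the shares were 43.2%, 44.7% and 3.84%. Without thinning they were 63.3%, 53.9% and 9.10% in C7 and 55.0%, 61.0% and 3.11% in C9, whose cells held fewer UMIs. At 5 mg/kg 1 cell held 41 of the 80 Gzma UMIs of C7 in pool 1, and 1 cell held 31 of 85 in pool 3. With single cells this high, Gzma in C7 is not read as background at every dose.

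C7 cells were CD4+ T cells by protein and RNA. The median number of CD4 antibody UMIs per pool was 315 to 613 and that of CD8 antibody UMIs was 5 to 10, and no C7 cell had more CD8 than CD4 antibody. Cd8a was at 0 in C7, and Cd8b1 averaged 109 CPM under saline, below the 151 CPM of the other CD4+ T cells and the 1306 CPM of CD8+ T cells. Th17 and NK markers summed to at most 41.3 CPM in any C7 pool, and erythroid markers to 37.4 to 45.9 CPM at 50 mg/kg, where the other CD4+ T cells had 26.97 to 36.1 CPM. B cell markers summed to 51.5 to 255 CPM and myeloid markers to 259 to 358 CPM in C7, within or below the ranges of 119 to 255 and 312 to 457 CPM in the other CD4+ T cells. Markers of other CD4+ subsets were not all low. Under saline, follicular helper markers summed to 1410 to 1646 CPM in C7 and 1272 to 1395 CPM outside it, and Treg markers to 448 to 484 and 318 to 340 CPM. Of 7 follicular helper markers 3 were higher and 1 lower in C7 in all 9 pools, and of 4 Treg markers 1 and 1. C7 held its cells together when the authors clustered at 6 other resolutions, with 96.9% to 99.6% of its cells in 1 cluster each time.

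C7 cells held more RNA than their neighbours. The median was 4473 to 4531 UMIs per cell in the saline pools, 6424 to 8506 at 5 mg/kg and 7412 to 8444 at 50 mg/kg, higher than that of the other CD4+ T cells in 9 of 9 pools (2911 to 3131, 3980 to 4461 and 5701 to 6230). Median depth thus moved with the dose, and each test used sums over the C7 cells of a pool, which held 239770 to 556565 UMIs. Cells with 2 strong hashtags, which may be doublets, made up 5.31% of C7 and 4.04% of the other CD4+ T cells, and up to 18.5% of C7 in a pool at 50 mg/kg. Of the C7 barcodes, 12 also occurred in another capture.

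The genes that set C7 apart under every treatment were chemokines, effector cytokines, TNF receptor superfamily members and genes of ribosome production. The clusters were made from these counts, so the levels are a description without a test. Ccl4 and Ccl3, the chemokines MIP-1β and MIP-1α that attract T cells, macrophages and NK cells, averaged 2290 and 994 CPM in C7 against 146 and 57.8 CPM outside it, a 15.6-fold and a 16.9-fold higher level. Ifng, the effector cytokine of Th1 cells, averaged 319 CPM in C7 and 49.8 CPM outside it (6.31-fold), and Tnf 167 and 40.7 CPM (4.03-fold). Of 8125 genes of at least 10 CPM, 1036 (12.8%) were higher in C7 in all 9 pools and 1224 (15.1%) were lower. Among 30 cytokines and chemokines, 13 were higher in all 9 pools, with a median log2 ratio of 1.57 where all genes had -0.04.

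**Figure D1:**
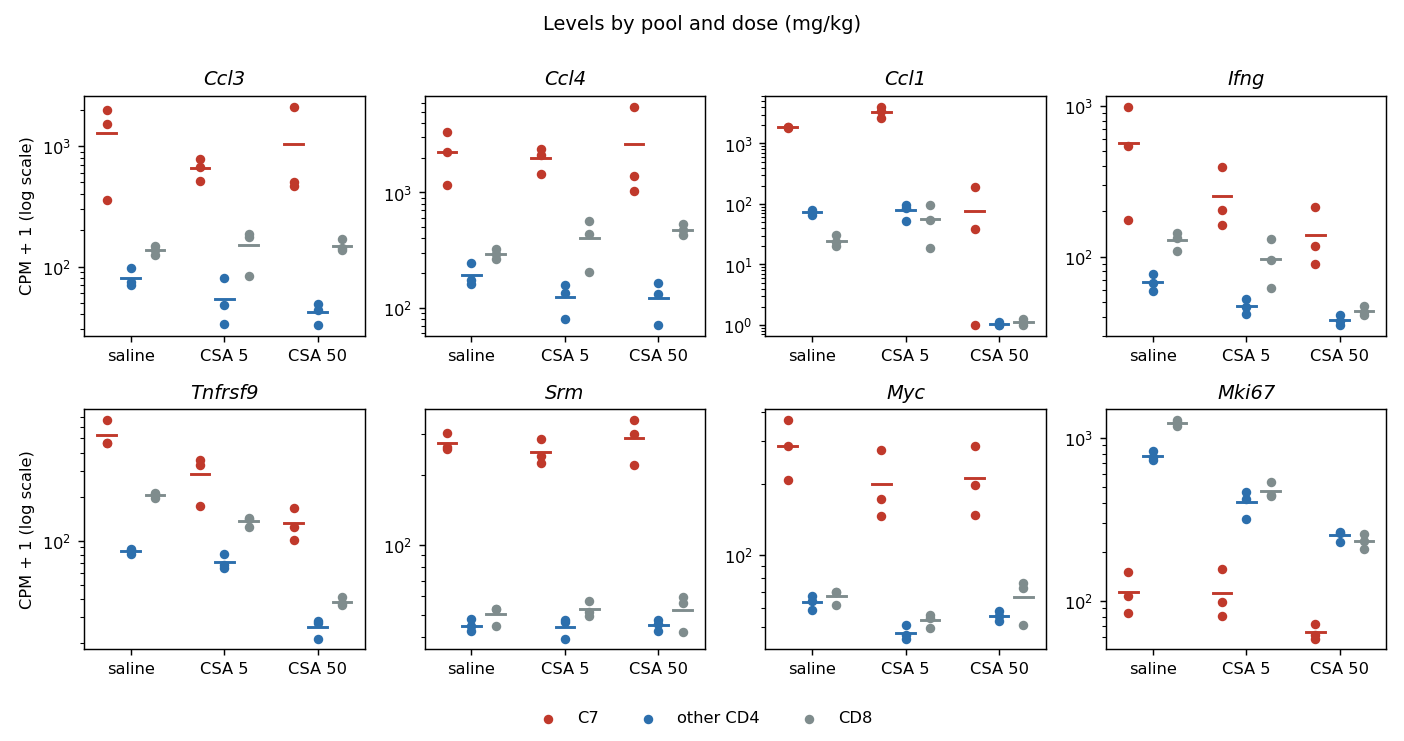
Levels (CPM + 1, log scale) of 8 genes in each of 9 pools by treatment, in C7, the other CD4+ T cells and CD8+ T cells; points are pools and bars are group means. Ccl3, Ccl4, Srm and Myc lay above both other sets at every dose, Mki67 lay below, and Ccl1 at 50 mg/kg was at 0 to 189 CPM in the C7 pools, below every saline pool of C7.

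The second program was growth. Srm, the spermidine synthase that Myc induces, averaged 271 CPM in C7 and 43.8 CPM outside it (6.09-fold), and Myc itself 231 against 54.5 CPM (4.18-fold). Of 35 Myc targets and ribosome production genes, 31 were higher in C7 in all 9 pools, with a median log2 ratio of 1.29. Rrp15, Ppan, Gnl3, Nop16, Nolc1, Mybbp1a and Wdr75, which serve nucleolar ribosome assembly, were among the 20 genes with the highest ratios. Tnfrsf4 (OX40) and Tnfrsf9 (4-1BB), costimulatory receptors induced on activated T cells, averaged 754 and 315 CPM, 4.13-fold and 5.21-fold above the other CD4+ T cells, and were exceeded only by the Treg cluster C11. The other 18 of the 20 leading genes were highest in C7 of all 13 clusters. As for Gzmb, these ranks compare means over unlike sets of pools.

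Genes of division and of egress were low. Mki67, the proliferation marker, averaged 96.0 CPM in C7 against 476 CPM in the other CD4+ T cells (4.92-fold lower), and 16 of 20 cell cycle genes were lower in all 9 pools (median log2 ratio -1.43). S1pr1, the receptor with which T cells leave lymphoid organs, averaged 39.9 CPM against 172 CPM. The C7 mean was the lowest of the 13 clusters, again over unlike sets of pools. Of 34 memory and quiescence genes, 29 were lower in C7 in all 9 pools, with a median log2 ratio of -0.97.

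Transcripts of the leading cytokines sat in few C7 cells. The 49 cells with the most UMIs of a gene held 93.0% of all Ccl3 UMIs of C7, 90.5% of Ccl4, 91.3% of Ccl1 and 79.5% of Ifng, but 37.1% of Srm. With 2000 UMIs per cell, 79.6% ± 8.78 (SD, n = 3 pools) of C7 cells under saline held a UMI of at least 1 of 10 cytokine genes (Ccl1, Ccl3, Ccl4, Xcl1, Ifng, Tnf, Csf2, Il2, Il3 and Il21) and 52.8% ± 12.1 held at least 2 of them. In the other CD4+ T cells these shares were 44.6% ± 1.98 and 12.9% ± 1.42. At 5 mg/kg, 63.0% of C7 cells held at least 1 and 34.7% at least 2, and at 50 mg/kg 44.6% and 21.7% did, against 13.5% and 2.68% of the other CD4+ T cells. By gene, the share of C7 cells with a Ccl4 UMI was 35.7%, 24.0% and 21.9% under saline and at the low and the high dose. In naive C9 it was 18.4% and 8.59% under saline and at 5 mg/kg, and no C9 cell held one at 50 mg/kg after thinning (1.92% without thinning). For Tnf and Ccl3 the C9 shares were 14.5% and 11.4% under saline and 4.77% and 0% at 50 mg/kg. The combined shares were not computed for C9, so how much of them and of their fall is background was not tested.

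**Figure D2:**
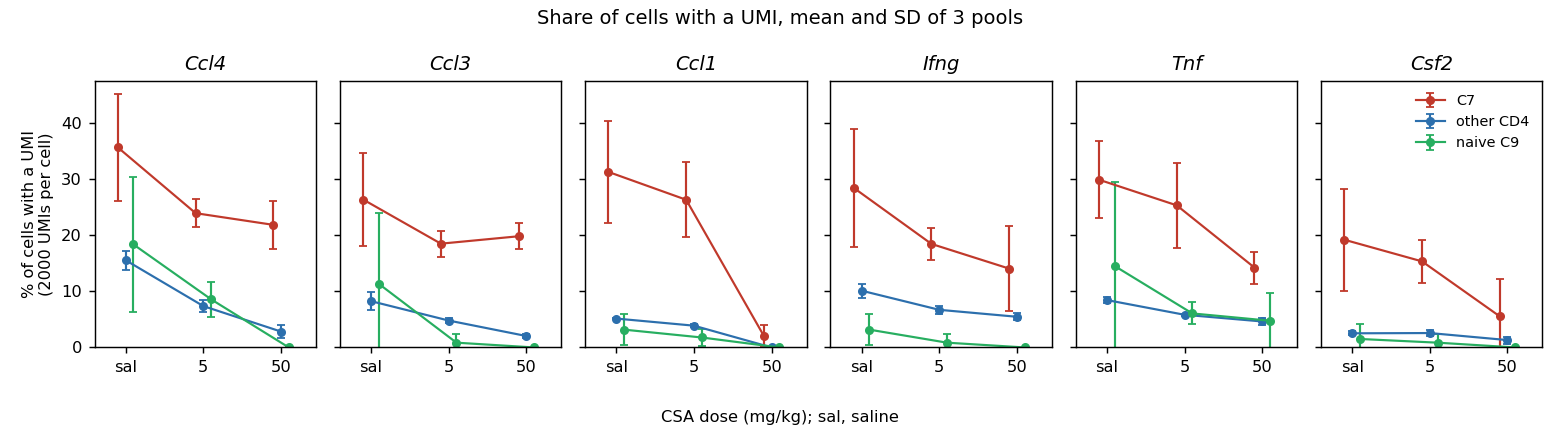
Share of cells with a UMI of 6 cytokine genes (percent, each cell thinned to 2000 UMIs) by dose, in C7, the other CD4+ T cells and the naive cluster C9; points are means and bars SDs of 3 pools. C7 lay above the other CD4+ T cells for each gene at each dose, and its Ccl1 share went from 31.3% under saline to 2.07% at 50 mg/kg.

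Summed over the saline pools, C7 held most of the Ccl1, Csf2 and Il2 transcripts of the CD4+ T cells although it held 4.36% of the cells and 6.19% of the UMIs. Its share was 63.6% of the 2745 Ccl1 UMIs, 52.5% of the Csf2 UMIs and 61.5% of the Il2 UMIs of that group. At 5 mg/kg, when C7 was 5.56% of the cells and 8.73% of the UMIs, these shares were 80.5%, 69.3% and 71.7%. The pools at 5 mg/kg had 72.0%, 44.2% and 77.9% for Csf2 and 54.3%, 57.8% and 81.5% for Il2. Of the 170 Il2 UMIs of C7 at that dose, 119 were in pool 3, and 75 of these were in 1 cell. By pool, the share of Csf2 under saline was 57.8%, 37.7% and 54.5%. At 50 mg/kg C7 held 27.9% of the Csf2 UMIs (3.57% in pool 2) and 53.1% of the Il2 UMIs (11.1% in pool 2). This Il2 share was 34 of 64 UMIs, and 27 of the 34 were in 1 cell of pool 3. For Gzmb the share of C7 was 3.29% under saline and 5.53% and 9.54% at the low and the high dose.

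Across doses, the genes of C7 were tested with edgeR's quasi-likelihood test on the 9 pools, with Benjamini-Hochberg adjusted p-values. Of 5698 genes tested, 2085 (36.6%) differed between 50 mg/kg and saline, 1037 (18.2%) as rises and 1048 (18.4%) as falls. Between 5 mg/kg and saline, 1405 (24.7%) differed, of which 739 (13%) rose and 666 (11.7%) fell. Between the doses 434 (7.62%) differed, 200 (3.51%) higher and 234 (4.11%) lower at 50 mg/kg. The 3 pools of 1 group lay apart from those of the other for 2814 genes (49.4%) at 50 mg/kg, 2539 (44.6%) at 5 mg/kg and 1297 (22.8%) between the doses. Both doses were compared with the same saline pools. Log2 changes are scaled by TMM, which set the median gene near 0 (-0.01 at 50 mg/kg and -0.03 at 5 mg/kg). Scaling by library size alone shifted the median to -0.35 at both doses and gave 504 rises and 1901 falls at the high dose and 359 and 1643 at the low dose, so weak rises depend on the scaling. In sums over cells, fewer producing cells and less RNA per cell cannot be told apart.

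Cytokines fell at 50 mg/kg. Of 22 tested, 12 fell and 3 rose (Ccl5, Ltb and Mif), with a median log2 change of -0.89 (13 lower and 2 higher with library size scaling). Among all genes, 18.4% fell and 18.2% rose. Ccl1, a chemokine that acts through CCR8, was at 1906, 1890 and 1806 CPM in the saline pools, at 3410, 2592 and 4044 CPM at 5 mg/kg and at 37.4, 189 and 0 CPM at 50 mg/kg. All 3 pools at 5 mg/kg lay above saline and all 3 at 50 mg/kg below. The log2 change at 50 mg/kg was -4.45 ± 0.38 (SE, edgeR adjusted p 1.3e-09). The rise at 5 mg/kg was 1.14 ± 0.26 (adjusted p 0.0022), and it was lost in DESeq2 (adjusted p 0.60). At 50 mg/kg, C7 held 82 Ccl1 UMIs in 3 of 148 cells, 66 of them in 1 cell.

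Csf2, the cytokine GM-CSF that activates myeloid cells, was at 380, 105 and 534 CPM under saline, 477, 230 and 737 CPM at 5 mg/kg and 98.2, 5.74 and 28.9 CPM at 50 mg/kg. No pool at 50 mg/kg reached the lowest saline pool (log2 change -2.48 ± 0.55, edgeR adjusted p 0.00095). Xcl1, which attracts XCR1+ dendritic cells, fell by 4.21 on the log2 scale (adjusted p 0.0004), and Il21, a cytokine of helper cells for B cells, by 3.70 (adjusted p 1.2e-07). The TNF superfamily ligands Tnfsf8 (CD30L), Tnfsf11 (RANKL) and Tnfsf14 (LIGHT) fell by 3.20, 2.08 and 2.20. The promoters of the falling cytokines with an entry held the GGAAA core in 10 of 10 cases, and those of the cytokines that did not fall in 7 of 8.

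Ifng was at 987, 173 and 538 CPM under saline, 395, 203 and 162 CPM at 5 mg/kg and 88.8, 118 and 211 CPM at 50 mg/kg. The pools overlapped, and saline pool 1 was the highest. The log2 change at 50 mg/kg was -1.66 ± 0.40 (edgeR adjusted p 0.0022), and it was -0.90 (adjusted p 0.088) without saline pool 1 and missed the threshold in DESeq2 (adjusted p 0.062). Tnf fell by 0.90 (adjusted p 0.011), which was lost without saline pool 3 (adjusted p 0.12) and in DESeq2 (adjusted p 0.067). Il2, the T cell growth factor, was at 67.7, 49.8 and 79.2 CPM under saline, 71.5, 65.1 and 214 CPM at 5 mg/kg and 14.03, 2.87 and 60.1 CPM at 50 mg/kg, and did not pass the test at 50 mg/kg (log2 change -0.89, adjusted p 0.23). Without pool 3 of 50 mg/kg its change was -2.44 (adjusted p 0.0087). Its rise at 5 mg/kg of 1.26 (adjusted p 0.032) was 0.43 (adjusted p 0.54) without pool 3 of that dose.

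The leading chemokines of C7, Ccl3 and Ccl4, did not pass the test at 50 mg/kg. Ccl3 was at 1999, 357 and 1531 CPM under saline, 775, 510 and 672 CPM at 5 mg/kg and 470, 508 and 2125 CPM at 50 mg/kg, with a log2 change of 0.03 ± 0.42 at 50 mg/kg (edgeR adjusted p 0.97). In pool 3 of 50 mg/kg, 636 of 955 Ccl3 UMIs came from 1 cell, and without that pool the change was -1.04 (adjusted p 0.024). Ccl4 was at 2222, 1156 and 3332 CPM under saline and 1029, 1389 and 5531 CPM at 50 mg/kg (log2 change 0.58 ± 0.38, adjusted p 0.25). There 1409 of 2486 UMIs of pool 3 came from 1 cell, and without the pool the change was -0.54 (adjusted p 0.098). Ccl5, the chemokine RANTES, rose from 403, 784 and 1026 CPM to 2539, 1951 and 1555 CPM (log2 change 1.77, adjusted p 4.6e-05).

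**Figure D3:**
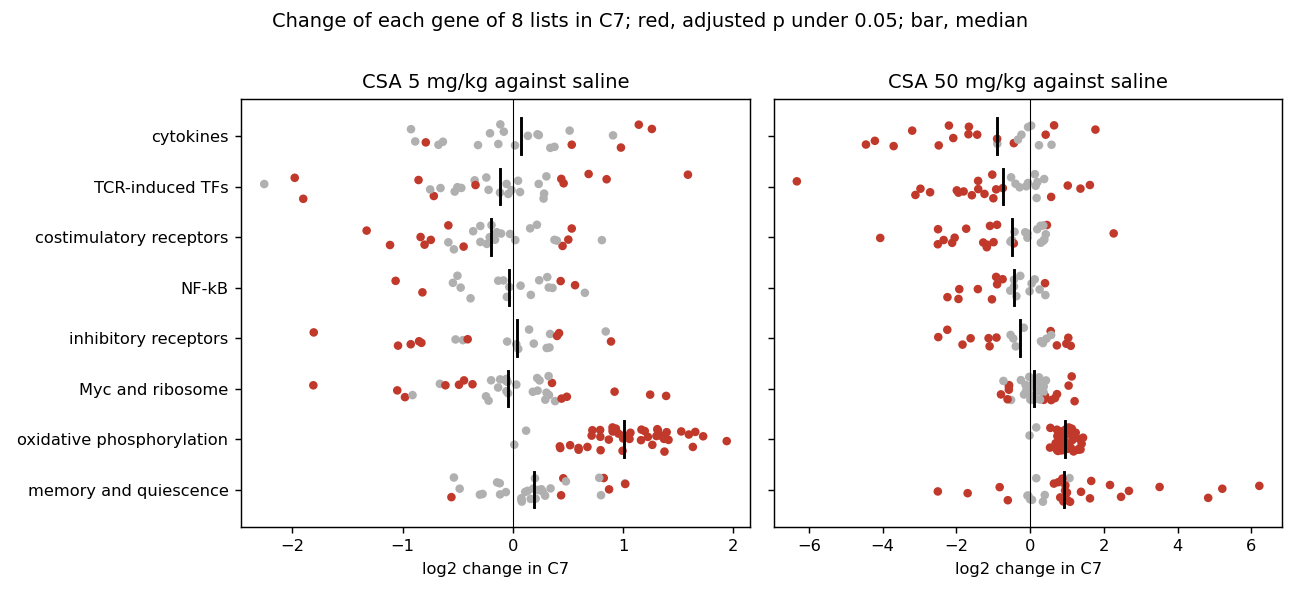
Log2 change in C7 against saline of each tested gene of 8 gene lists at 5 mg/kg (left) and 50 mg/kg (right); each point is a gene, red points passed an adjusted p of 0.05 and bars are list medians. At 50 mg/kg the medians of cytokines, TCR-induced transcription factors and costimulatory receptors lay below 0 and those of oxidative phosphorylation and memory genes near 0.9.

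Transcription factors induced by the TCR also fell. Of 29 tested, 15 fell and 4 rose at 50 mg/kg, with a median log2 change of -0.74 (16 and 1 with library size scaling), and at 5 mg/kg 5 fell and 5 rose. Among all genes, 18.4% fell and 18.2% rose at 50 mg/kg, and 11.7% fell and 13% rose at 5 mg/kg. Egr2, a factor induced by NFAT that restrains activation, was at 132, 105 and 238 CPM under saline, 109, 135 and 115 CPM at 5 mg/kg and 14.03, 8.61 and 17.8 CPM at 50 mg/kg (log2 change -3.11 ± 0.36, edgeR adjusted p 2.2e-07). The pools of saline and 5 mg/kg overlapped and those of 50 mg/kg lay below both. Tox, a factor of chronically stimulated T cells, went from 277, 265 and 225 CPM to 134, 108 and 108 CPM at 5 mg/kg and 18.7, 25.8 and 33.4 CPM at 50 mg/kg, a fall at both doses (log2 changes -0.86 and -2.97). Irf4, which scales with TCR signal strength, fell by 1.90 at 5 mg/kg and by 1.00 at 50 mg/kg (edgeR adjusted p 0.008), the latter lost in DESeq2 (adjusted p 0.055) and without pool 1 of saline (-0.61, adjusted p 0.13). Batf, its partner, rose by 0.69 at 5 mg/kg and fell by 1.24 at 50 mg/kg.

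Some members moved the other way. Nr4a1, an immediate early gene of TCR signalling, was at 83.8, 65.5 and 158 CPM under saline, 314, 263 and 154 CPM at 5 mg/kg and 157, 135 and 180 CPM at 50 mg/kg, a rise of 1.59 at 5 mg/kg (edgeR adjusted p 7e-05) and of 1.02 at 50 mg/kg (adjusted p 0.0061). The latter was lost in DESeq2 (adjusted p 0.081), with library size scaling (0.051) and without pool 2 of saline (0.062). Its relatives Nr4a2 and Nr4a3 fell by 1.41 and 1.99 at 50 mg/kg. Id2, an inhibitor of E proteins in effector cells, rose by 1.36 (adjusted p 2.3e-07). Myc did not pass the test at either dose (log2 changes -0.22 and -0.11), nor did Srm (0.18 and 0.37).

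Within the calcineurin and NFAT list, 6 of 20 tested genes fell and 5 rose at 50 mg/kg (9 and 2 with library size scaling), where 18.4% of all genes fell and 18.2% rose. Nfatc1, which NFAT itself induces, went from 468, 508 and 588 CPM under saline to 263, 228 and 275 CPM at 5 mg/kg and 246, 218 and 198 CPM at 50 mg/kg. The saline pools lay above all treated pools (log2 changes -0.72 and -0.92, edgeR adjusted p 0.00016 and 5.3e-06). Ppp3ca, a catalytic subunit of calcineurin, rose from 32.2, 10.5 and 29.2 CPM to 74.8, 91.8 and 57.9 CPM at 50 mg/kg (log2 change 2.00, adjusted p 6.5e-05). Ppia, the cyclophilin to which CSA binds, rose by 0.55 and 0.63.

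Of 29 costimulatory and activation receptors, 14 fell and 2 rose at 50 mg/kg (median log2 change -0.49), where 18.4% of all genes fell and 18.2% rose. Tnfrsf9 fell from 664, 461 and 463 CPM to 354, 173 and 331 CPM at 5 mg/kg and to 124, 166 and 100 CPM at 50 mg/kg (log2 change -1.73, edgeR adjusted p 5.1e-07). Tnfrsf4 was at 812, 844 and 730 CPM under saline, 758, 846 and 1040 CPM at 5 mg/kg and 540, 603 and 616 CPM at 50 mg/kg, with a log2 change of -0.13 that did not pass the test (adjusted p 0.39) and of -0.47 with library size scaling (adjusted p 0.0019). Cd81, a tetraspanin, fell from 239, 94.4 and 150 CPM to 11.7, 5.74 and 4.45 CPM at 50 mg/kg (log2 change -4.06). Of 19 NF-kB genes, 8 fell and 1 rose, Rel among the former by 1.94.

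Inhibitory receptors moved in both directions. Of 20 tested, 7 fell and 5 rose at 50 mg/kg (median log2 change -0.28), where 18.4% of all genes fell and 18.2% rose. Pdcd1 (PD-1) went from 390, 275 and 342 CPM under saline to 72.5, 54.5 and 42.3 CPM at 50 mg/kg (log2 change -2.25, edgeR adjusted p 4.9e-09), whereas its pools at 5 mg/kg (326, 268 and 244 CPM) overlapped those of saline. Tigit and Lag3 fell by 1.83 and 1.10, and Ctla4 rose by 1.10 (adjusted p 0.018), a call lost in DESeq2 (0.13), with library size scaling (0.094), and without pool 1 (0.061) or pool 2 (0.069) of saline or pool 2 of 50 mg/kg (0.14). All 7 follicular helper markers fell at 50 mg/kg, among them Cxcr5 by 3.74 and Bcl6 by 2.37. Sostdc1, the last of these 7, had 0 UMIs in C7 at 50 mg/kg and 25.02 to 176 CPM under saline.

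Memory and quiescence genes rose at 50 mg/kg. Of 32 tested, 20 rose and 4 fell at 50 mg/kg, with a median log2 change of 0.92 (17 and 4 with library size scaling). Among all genes, 18.2% rose and 18.4% fell. At 5 mg/kg 5 rose and 1 fell (18.75% called), below the 24.7% of all genes called at that dose. Ly6c2, the surface protein Ly6C, was at 67.7, 70.8 and 75.1 CPM under saline, 71.5, 55.0 and 171 CPM at 5 mg/kg and 1955, 1670 and 1270 CPM at 50 mg/kg (log2 change 4.83 ± 0.24, edgeR adjusted p 2.2e-13). Klf2, which maintains egress and quiescence, rose from 139, 170 and 150 CPM to 470, 316 and 383 CPM (1.66, adjusted p 3.9e-08). Klrg1, a receptor of differentiated effector cells, rose by 5.21 and Lmna (lamin A/C) by 6.21. Klf2 in C7 at 50 mg/kg was below the 675 CPM that the other CD4+ T cells had under saline. Tcf7, a factor of memory and follicular helper cells, fell by 1.69.

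Oxidative phosphorylation genes rose together at both doses, with 41 of 43 higher and 0 lower at 5 mg/kg (median log2 change 1.01) and at 50 mg/kg (0.95). With library size scaling 36 and 38 were higher and 1 was lower at each dose. The change of these 43 genes in C7 minus that in the other CD4+ T cells of the pools had a median of 0.20 at 5 mg/kg and 0.02 at 50 mg/kg. The largest rises at 5 mg/kg, by the naming rule, were of Rpl38 (2.00), Rps29 (1.95), Atp5k (1.94), Rps28 (1.92) and Usmg5 (1.83), short transcripts of ribosomal proteins and of ATP synthase. Rpl38 went from 642, 713 and 688 CPM to 2187, 2249 and 2196 CPM in C7 and from 668 to 1846 CPM on average in the other CD4+ T cells. The largest falls were of Larp4, Kcnq1ot1, Huwe1, Jak2 and Arcn1 (log2 changes -1.33 to -1.64). As each dose was 1 capture, the dose and the library preparation cannot be told apart here.

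The largest rises at 50 mg/kg by the naming rule were of Ly6c2, Itm2a, Gzmb, Klrc1, S100a4, Ccl5, Dnajc15 and Arpp19, and the largest falls were of Ccl1, Xcl1, Hist1h3e, Ifitm3, Tnfsf8, Gzma, Tox and Ifitm1. Itm2a, a membrane protein of activated thymocytes and T cells, rose from 54.8, 44.6 and 41.7 CPM to 234, 276 and 220 CPM. Ifitm3, an interferon-induced membrane protein, rose at 5 mg/kg by 1.11 and fell at 50 mg/kg by 3.46. Of 20 cell cycle genes tested, 1 (Hmgb2) rose and 1 (Ube2c) fell at 50 mg/kg, and of 15 tissue dissociation and heat shock genes 4 rose and 4 fell. Of 15 glycolysis genes, 4 rose and 2 fell. With library size scaling 0 rose and 7 fell of the cell cycle genes, 1 and 6 of the dissociation genes and 3 and 7 of the glycolysis genes, so no direction is read from these lists.

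Of 16 cytotoxic markers tested in C7, 7 rose and 2 fell at 50 mg/kg (5 and 3 with library size scaling), where 18.2% of all genes rose and 18.4% fell. Gzmb went from 384, 270 and 463 CPM under saline to 274, 505 and 410 CPM at 5 mg/kg and 1459, 2037 and 1796 CPM at 50 mg/kg, where the pools lay clear of both other groups (log2 change 2.58 ± 0.17, edgeR adjusted p 5e-11). Much of the level at 50 mg/kg lay in few cells. The highest cell held 99 of 624, 128 of 710 and 165 of 807 Gzmb UMIs by pool, and the top 5 cells held 53.4%, 65.2% and 60.1%. After thinning, the share of C7 cells with a Gzmb UMI was 48.1% under saline and 52.9% at 50 mg/kg. The saline share of C7 cells with a Gzmb UMI was not clear of background. The share of C9 cells with one went from 57.5% to 12.1%, so the size of the change rests on that baseline. Gzma fell from 171, 199 and 267 CPM to 16.4, 17.2 and 26.7 CPM (log2 change -3.03, edgeR adjusted p 8.7e-09). After thinning, the share of C7 cells with a Gzma UMI was not above that of C9 at any dose. Crtam, a receptor linked to CD4+ cells of cytotoxic potential, fell from 129, 70.8 and 45.9 CPM to 2.34, 5.74 and 6.67 CPM (-3.69, adjusted p 9.4e-05). Klrc1 and Klrd1, which pair as the NKG2A and CD94 receptor, rose by 2.40 and 1.99. Prf1 was too low to be tested, with pools of 10.5 to 41.9 CPM under saline and 7.01 to 17.8 CPM at 50 mg/kg.

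The rise of Gzmb at 50 mg/kg was larger in C7 than in the other cells of the same pools. The other CD4+ T cells went from 698 to 1040 CPM and CD8+ T cells from 2756 to 2041 CPM. The change in C7 exceeded that of the other CD4+ T cells by 1.66 ± 0.16 on the log2 scale (interaction with pool as a block, edgeR adjusted p 3.3e-10) and that of CD8+ T cells by 2.59. Both differences start from a saline level in C7 that was not clear of background. In all, 76 of 9839 genes (0.772%) changed by another amount in C7 than in the other CD4+ T cells at 50 mg/kg, 36 (0.366%) upward and 40 (0.407%) downward. At 5 mg/kg the count was 2 (0.0203%), with 616 genes at an unadjusted p under 0.05 and 1 gene in DESeq2. Against CD8+ T cells, 267 of 10065 genes (2.65%) did at 50 mg/kg, 115 (1.14%) upward and 152 (1.51%) downward (204 and 74 with library size scaling). Both comparison sets are mixes of clusters whose sizes moved with dose. CD4+ cluster C4 had 204, 278 and 251 cells in the saline pools and 18, 11 and 16 at 50 mg/kg. For 1 CD8+ cluster the numbers were 319, 370 and 326, then 6, 7 and 7. The differences can thus include a shift in composition, which was not tested.

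**Figure D4:**
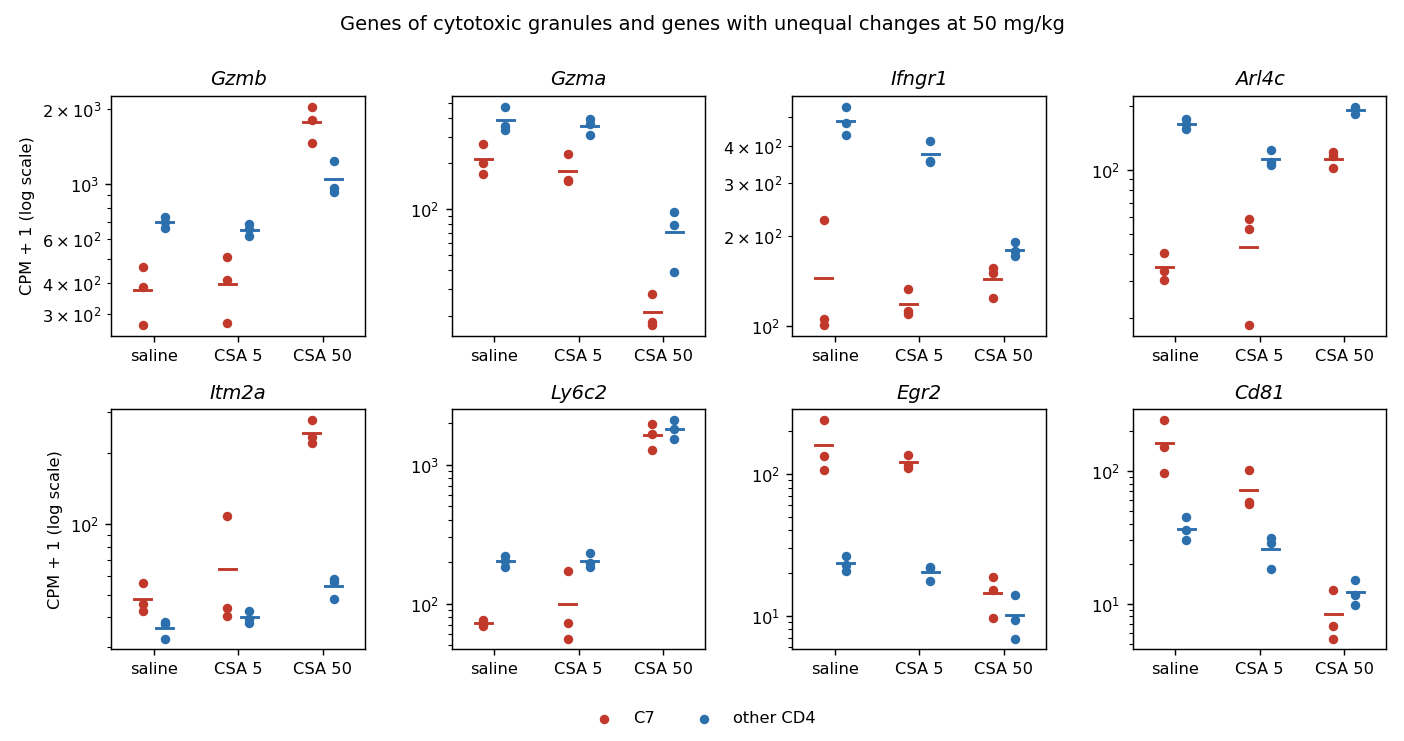
Levels (CPM + 1, log scale) of 8 genes in C7 and the other CD4+ T cells in each of 9 pools by treatment; points are pools and bars are means. Gzmb in C7 lay below the other CD4+ T cells under saline and above them at 50 mg/kg, whereas Gzma lay below at every dose.

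Further genes changed unequally at 50 mg/kg. Ifngr1, a chain of the interferon-γ receptor, averaged 143 CPM in C7 under saline and 143 CPM at 50 mg/kg, while the other CD4+ T cells went from 482 to 179 CPM (difference of the changes 1.44, edgeR adjusted p 7.7e-06). Arl4c, a small GTPase, rose in C7 from 33.6 to 112 CPM, and the other CD4+ T cells averaged 163 and 191 CPM (1.43, adjusted p 0.0021). Egr2 and Cd81 fell further in C7, by 2.20 and 2.74 (adjusted p 0.0011 and 0.0006), from saline levels of 158 and 161 CPM in C7 and 22.3 and 35.7 CPM outside it. Itm2a rose more in C7 (1.71, adjusted p 0.00016), with other CD4+ T cells at 35.02 and 53.3 CPM. For Ccl1 the test gave 4.89, but the other CD4+ T cells held 1 UMI at 50 mg/kg, and the value was lost in DESeq2 (adjusted p 0.48), without the block (0.18) and without pool 2 of 50 mg/kg (0.44).

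Against CD8+ T cells, Tnfrsf4 had the largest difference by the naming rule (3.88). CD8+ T cells went from 38.1 to 1.74 CPM and C7 from 795 to 586 CPM. Cd40lg, the helper ligand of CD4+ T cells, differed by 2.20, Ly6c2 by 2.26 and Klrc1 by 1.81. Gzma averaged 1453 and 1212 CPM in CD8+ T cells (difference -3.25), and its thinned share of C7 cells was not above that of naive C9 at any dose. The 20 leading genes of C7 were also highest in a single one of the CD8+ clusters, number 7 of the authors' table with 291 cells, for 20 of 20 genes, where 1063 of 7574 genes (14.03%) had their highest CD8+ level. This number is from a separate column of CD8+ cluster labels. It was not matched to the paper's CD8+ cluster numbers and does not stand for the paper's CD8+ C7. In that CD8+ cluster Ccl4 averaged 6289 CPM, Ccl3 2059 CPM and Srm 178 CPM. Its granule genes were well above those of C7, with Gzmb at 2504 CPM against 844, Gzma at 1007 against 137 and Prf1 at 335 against 20.3 CPM. The means of the CD8+ cluster are over 8 pools and those of C7 over 9. The ranks among the CD8+ clusters also compare unlike sets of pools.

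The size of C7 did not change detectably with dose. It made up 4.41% ± 0.95 of CD4+ T cells under saline, 5.50% ± 0.69 at the low and 4.83% ± 0.78 at the high dose (SD, n = 3 pools), and the trend over the doses had p 0.668 by an exact permutation of the Jonckheere-Terpstra statistic (two-sided, smallest possible p 0.0006). In edgeR on numbers of cells per cluster, the log2 change at 50 mg/kg was 0.14 (p 0.54, adjusted p 0.70 over 13 clusters).

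**Figure D5:**
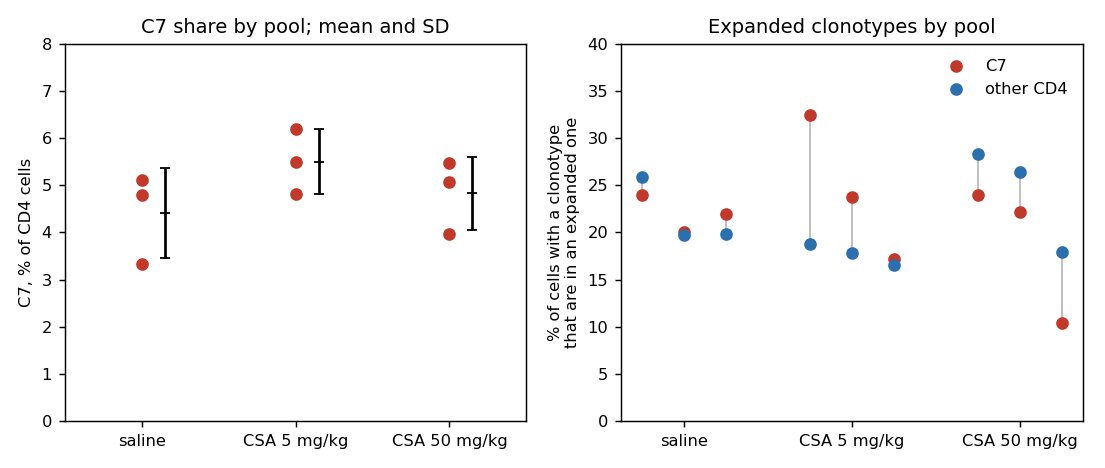
Left, C7 as a percentage of CD4+ T cells in each pool with mean and SD of 3 pools; right, the percentage of cells with a clonotype that belong to an expanded clonotype in C7 and in the other CD4+ T cells, with lines joining the sets of a pool. The groups overlapped on the left, and C7 lay above the other cells in 5 of 9 pools on the right.

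The TCR sequence gave a readout apart from the clusters. A clonotype was found for 431 C7 cells, which carried 424 different clonotypes. Only 7 of these were found in more than 1 C7 cell, and none in more than 2. Expanded clonotypes, found in at least 2 CD4+ T cells of a pool, held 21.8% ± 5.94 of C7 cells and 21.2% ± 4.39 of the other CD4+ T cells (SD, n = 9 pools). The paired difference was 0.55 ± 6.36 percentage points (exact two-sided sign-flip permutation test, p 0.805, smallest possible p 0.0039), with C7 higher in 5 of 9 pools. Without the cycling, naive, Treg and Th17 clusters among the other cells it was 4.11 points (exact p 0.051). Across doses the share in C7 was 22.0% ± 2.00, 24.5% ± 7.68 and 18.9% ± 7.38 (exact trend test, p 0.9).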

How the data were processed

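Single-cell RNA and TCR libraries of 9 pools (3 per treatment, 2 mice each) were used. The deposited RNA and antibody values are UMI counts per cell, filtered by the authors, for 18029 genes, and the counts of each cell summed to the total in the authors' cell table. The authors' table also gives clusters, pools, TEa marks, clonotypes and the fraction of mitochondrial UMIs, a deposited value printed here as percent. The submitters' processing notes name Cell Ranger, Seurat 3.0.0 and mm10, without the step each served. The authors' module scores were not used.

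C7 counts were summed per pool. CPM are UMIs scaled to the total of the summed cells, without TMM. Tests used the quasi-likelihood test of edgeR 4.0.16 under R 4.3.3, fitted to 9 pools at once after filterByExpr and TMM, Benjamini-Hochberg adjustment over all genes tested and a threshold of 0.05. Whether C7 and other cells changed alike was tested as a cell set by dose interaction, blocked by pool, since both sums of a pool come from the same mice. Doublets were not called, and cells with 2 strong hashtags (the second at least 0.5 of the first) were left out in an alternative added after the data had been seen. Thinning used 2000 UMIs per cell. Promoters came from RefSeq.

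The cluster, the gene lists and the tests were chosen with earlier results of these data known. Genes were named from the lists, as the 8 largest rises and falls at 50 mg/kg and the 5 at 5 mg/kg (mean of at least 100 CPM, no overlap of pools), as the 20 highest and 8 lowest ratios of C7 over the other CD4+ T cells, and as the 5 largest differences of change each way, without TCR, immunoglobulin and sex-linked genes. Gene lists are described by counts and medians and were not tested as sets. Alternatives were DESeq2 1.42.0, library size scaling, no filter, fits of the compared groups only, subsets of cells, and leaving out each pool.

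On simulated data for 50 mg/kg against saline in C7, 58.5% of 200 genes with a planted log2 change of 1 and 91% of those with 2 were called, with 8 and 3 unchanged genes called. For the difference of the change from the other CD4+ T cells the shares were 54% and 95%, with 7 and 10 unchanged genes called. The simulation differed from the data, where 36.6% of genes were called at 50 mg/kg and both sums of a pool come from the same mice. Its sums were drawn independently, so these shares do not give the recovery or false calls of the fits above.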

Additional observations from a re-analysis of the deposited data

Results flagged for a closer look

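The changes of C7 with dose differed from those of the other cells by an interaction test with pool as a block. At 5 mg/kg 2 genes differed from the other CD4+ T cells, and at 50 mg/kg 76 did. Against CD8+ T cells, 267 genes differed at 50 mg/kg. In each case the difference is the log2 change in C7 minus that in the other cells, whose mix of clusters moved with dose. No cause was tested.

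Against the other CD4+ T cells, the difference was 1.66 for Gzmb, 1.45 for Pdcd1, 1.44 for Ifngr1, 1.43 for Arl4c and 4.89 for Ccl1. Pdcd1 lost its call in DESeq2 (adjusted p 0.25), without the block (0.17) and without pool 1 of 50 mg/kg (0.24), whereas Gzmb kept its call in every alternative. On the negative side were Ube2c, a cell cycle ubiquitin ligase (-1.53), Hivep3, a zinc finger protein (-1.19), Isg15, an interferon-induced ubiquitin-like protein (-1.10), Tuba4a, a tubulin (-1.01), and Jak2, a cytokine receptor kinase (-0.996). Isg15 and Jak2 were lost in DESeq2 (adjusted p 0.28 and 0.18), and Tuba4a without the cycling clusters (0.20).

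Against CD8+ T cells, the difference was 3.88 for Tnfrsf4, 2.59 for Gzmb, 2.26 for Ly6c2, 2.20 for Cd40lg and 1.81 for Klrc1. It was -3.53 for Cd8b1, -3.25 for Gzma, -2.29 for Ifitm3, -1.96 for Ifitm1 and -1.94 for Plac8. Ifitm1 lost its call without the block (adjusted p 0.10) and without pool 1 of 50 mg/kg (0.077), and its fall within C7 was lost in DESeq2 (0.086). After thinning, the share of C7 cells with a Gzma UMI was not above that of naive C9 at any dose. Cd8b1 in C7 (90.3, 94.4 and 142 CPM under saline, 21.0, 22.9 and 17.8 CPM at 50 mg/kg) followed that of the other CD4+ T cells (151 and 23.4 CPM).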

How the results depend on the processing

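DESeq2 called fewer genes of C7, with 1331 at 50 mg/kg (733 higher, 598 lower), 768 at 5 mg/kg (520 and 248) and 262 between the doses. Leaving out each pool gave 1731 to 2170, 1008 to 1433 and 337 to 449 genes. The authors' cell table numbers the pools 1 to 3 in each group, although each pool carried its own hashtag, so a block by hashtag was not run. With that number as a replicate block, chosen after the data had been seen, 2057, 1379 and 436 genes were called, and Ccl3 at 50 mg/kg was -0.028. The deviations of same-numbered pools did not go together (r -0.054 to 0.029 over 9 pairs), so the number only names a pool. For the differences of change from the other CD4+ T cells, the fit without the pool as a replicate block gave 51 genes in place of 76 at 50 mg/kg and 1 in place of 2 at 5 mg/kg, and against CD8+ T cells 254 in place of 267. At 50 mg/kg DESeq2 gave 40, the fit without the cycling clusters 119 (80 and 39) and leaving out each pool 58 to 107. At 5 mg/kg DESeq2 gave 1, library size scaling 6, no filter 19, the fit without cells with 2 strong hashtags 8, the fit without the cycling clusters 37 and leaving out each pool 3 to 14. Against CD8+ T cells leaving out each pool gave 166 to 297 genes, the lowest without pool 1 of 50 mg/kg.

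Without 1 pool at a time, the change of the C7 share between saline and 50 mg/kg was -0.12 to 0.85 percentage points, negative without pool 3 of saline. The difference in expanded clonotypes was -1.10 to 1.55 points, negative without pool 1 (-1.10) or pool 2 (-0.13) of 5 mg/kg, and -1.47 with at least 3 cells per clonotype. The change of that share in C7 between saline and 50 mg/kg was -5.66 to 1.13 points, positive (1.13) without pool 3 of 50 mg/kg.

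Values that did not pass the test and turned sign were those of Ccl3 at 50 mg/kg (DESeq2 -0.00017, library size scaling -0.31, without pool 2 of saline -0.42, without pool 3 of 50 mg/kg -1.04, -1.04 to 0.54 over all pools left out) and its difference from the other CD4+ T cells (-0.25 without pool 3 of 50 mg/kg, up to 1.02 without others), of Ccl4 at 5 mg/kg (library size scaling -0.18, without pool 2 of saline -0.16, up to 0.58) and 50 mg/kg (-0.54 without pool 3, up to 1.02), and of Myc at 50 mg/kg (0.039 in cells with a clonotype, 0.11 without pool 2 of 50 mg/kg and 0.11 without pool 3 of saline, -0.34 to 0.11 over all pools left out). The difference of Ube2c passed the test and turned to 0.49 without the cycling clusters. Of 150 values of named genes, 133 passed the test and 98 did so in every alternative. With 40 to 72 C7 cells per pool, genes of few UMIs rest on few cells.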

Other observations

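C7 cells shared clonotypes with most other effector clusters. Of the 424 clonotypes, 82 were also found outside C7 in the same pool, in 170 cells. Of these, 35 were in C0, 33 in C3, 27 in C5, 25 in C1 and 22 in C6, and 0 were in the naive C9, the Treg C11 or the Th17 C12. C9, C11 and C12 also held only 0%, 0.06% and 0.25% of all expanded cells outside C7. The spread over clusters was close to that of all expanded cells outside C7, for example 20.6% against 19.5% in C0 and 19.4% against 20.2% in C3. These shares were not tested.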
